A study of Mus musculus with 3 samples.

Results

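The TREM receptors and the adaptors and enzymes that signal for them were described by 8 genes, taken by name from the list of 31053 mouse genes measured in all 3 libraries: the receptors *Trem2*, *Trem1*, *Trem3* and *Treml4*, the adaptors *Tyrobp* and *Hcst*, the kinase *Syk* and the phospholipase *Plcg2*. All 8 had UMIs (unique molecular identifiers, 1 per captured RNA molecule) in each library. The question was whether the adaptors, the kinase and the phospholipase varied together with *Trem2* across cell types and after vitamin D3. Single-cell RNA was read from C57BL/6 mouse bone marrow cells grown for 7 days with GM-CSF and left untreated (Co-Mac), from such cells given 1 μM of 1,25-dihydroxycholecalciferol (VD3) for 24 hours (VD-Mac), and from human split-thickness skin carried for 14 days under the skin of 5 pooled C57BL/6J mice (hSTSG). Only mouse genes were listed, and the part of human RNA among the graft UMIs was not tested. There was 1 library per condition, so no test was possible, and every interval is a 95% interval of counting error only.

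TREM receptors have short tails that cannot signal, and they act through DAP12 (encoded by *Tyrobp*), which carries an activation motif, or DAP10 (*Hcst*), which binds phosphoinositide 3-kinase. The phosphorylated motif of DAP12 recruits the kinase SYK, which leads to activation of the phospholipase PLCγ2. TREM2 is known on macrophages and microglia that take up lipid and cell debris, and TREM1 on neutrophils and monocytes, where it amplifies inflammation.

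After filtering, 7257 cells with 132574308 UMIs remained in Co-Mac, 8825 cells with 116461484 UMIs in VD-Mac, and 2144 cells with 22646544 UMIs in hSTSG. Of the kept barcodes, 15 were shared by Co-Mac and VD-Mac, 3 by Co-Mac and hSTSG, and 6 by VD-Mac and hSTSG. The cultures formed 13 clusters together and the graft 12, made without the 8 genes and named from other marker genes. Macrophage-like cells were culture clusters 3 and 5, of which cluster 5 was led by cell cycle genes such as *Mki67*, and graft clusters 1 and 3. The cultures were mixtures that also held mature DC-like (dendritic), mature neutrophil-like and neutrophil precursor-like cells, with 2099 macrophage-like cells in Co-Mac and 1735 in VD-Mac. Levels are given in CPM, a gene's part of all UMIs of the summed cells with every set scaled to the same total, and are compared only within a gene.

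*Trem2*, the receptor for lipids and debris, lies on chromosome 17 of GRCm38 from 48346401 to 48354147. It had 157 CPM (155 to 159) over all kept cells of Co-Mac and 343 CPM (339.8 to 347) over those of VD-Mac, a log2 ratio of 1.13 (1.11 to 1.15). Macrophage-like cells had 246 CPM (242 to 250.1) in Co-Mac and 717 CPM (708 to 725) in VD-Mac, a log2 ratio of 1.54 (1.51 to 1.57). Both macrophage-like clusters showed the difference, with 278 and 808 CPM in cluster 3 and 227 and 651 CPM in cluster 5. Summed macrophage markers were also higher in VD-Mac, at 2283 and 2878 CPM in cluster 3 and 1521 and 2868 CPM in cluster 5. The part of this in the VD3 ratios of macrophage-like cells, for *Trem2* and the other genes, was not tested. With only cells under 5% mitochondrial UMIs, which left 290 and 184 macrophage-like cells, the log2 ratio of *Trem2* was 1.18 in these and 0.73 in all cells, the latter under 2-fold.

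The higher *Trem2* level with VD3 was not restricted to macrophage-like cells. Mature DC-like cells had 28.4 CPM (26.8 to 30.1) of *Trem2* in Co-Mac and 77.5 CPM (75.1 to 80.0) in VD-Mac, and neutrophil precursor-like cells had 148 CPM (142 to 155) and 452 CPM (438 to 468). Mature neutrophil-like cells went the other way, with 249 CPM (233 to 264) and 189.7 CPM (177 to 203), a log2 ratio of -0.39 (-0.53 to -0.25). Over the 13 culture clusters, macrophage-like ones included, the interval of the *Trem2* ratio lay above 0 in 9 and below 0 in 1. Macrophage markers summed to 795 CPM in the mature neutrophil-like cells of Co-Mac and 596 CPM in those of VD-Mac, beside 1808 CPM and 2872 CPM in macrophage-like cells. They summed to 540 and 620 CPM in neutrophil precursor-like cells and to 86.4 and 78.7 CPM in mature DC-like cells. The part of RNA from macrophages in the *Trem2* levels of these types and of the other clusters was not tested.

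Ordered by *Trem2* level, the clusters of Co-Mac began with cluster 3, the mature neutrophil-like cluster 4, the unnamed cluster 12 and cluster 5, and 8 of 12 neighbours in the order had overlapping intervals. In VD-Mac macrophage-like clusters 3 and 5 came before the neutrophil precursor-like cells, and 5 of 12 neighbours overlapped. Both macrophage-like clusters of VD-Mac thus stood ahead of the neutrophil-like cells for *Trem2*. In the graft, macrophage-like cluster 1 had 634 CPM (615 to 653), macrophage-like cluster 3 248 CPM (230.4 to 266) and the unnamed cluster 2 81.6 CPM (71.8 to 92.3), and 8 of 10 neighbours overlapped. Graft neutrophil-like cells had 5.24 CPM (1.92 to 11.4) and fibroblast-like cells 3.03 CPM (1.51 to 5.42). With these clusters *Trem2* was highest in macrophage-like cells of the graft, which depended on the clusters that got this name, while in the untreated culture the mature neutrophil-like cells had about as much of it as macrophage-like cells.

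To compare shares of cells with a *Trem2* UMI, cells were brought to the same depth by drawing 2000 UMIs from each. In macrophage-like cells the share was 38.2% (36.1 to 40.3) of 2096 cells in Co-Mac and 70.5% (68.3 to 72.6) of 1732 cells in VD-Mac, with 3 cells left out of each for low depth. All UMIs gave 93.0% and 96.0%, where the median cell had 23440 UMIs in Co-Mac and 18224 in VD-Mac. More macrophage-like cells of VD-Mac than of Co-Mac thus had a *Trem2* UMI after thinning, which made the depth equal and also lower, and the part of each in the wider difference was not tested. In graft macrophage-like cells the share was 47.4% (43.2 to 51.6) of 572 cells (59 left out), and in T cell-like cells, which should lack *Trem2*, 1.02% (0.210 to 2.94) of 295 (6 left out). With all UMIs they were 74.3% and 2.66%, and the median cell had 12467 and 5552 UMIs. In the cultures the named types with the least *Trem2* were cDC1-like and mast cell or basophil-like cells. After thinning, the cDC1-like cells with a UMI were 1 of 77 in Co-Mac and 1 of 116 in VD-Mac, and mast cell or basophil-like cells 0 of 58, which allows a share of cells with a UMI of up to 5.17% (3 counts of the total), and 3 of 70. With all UMIs the latter had 2.76 CPM (0.334 to 9.96) of *Trem2* in Co-Mac and 24.2 CPM (14.3 to 38.2) in VD-Mac, on 2 and 18 UMIs. The *Trem2* intervals overlapped in cDC1-like cells, at 7.31 CPM (3.16 to 14.4) and 9.93 CPM (5.56 to 16.4), and in cluster 11, at 18.2 and 17.5 CPM. They also overlapped in the unnamed cluster 12, where *Trem2* was high in both, at 239.6 CPM (217.6 to 263.3) in Co-Mac and 267.3 CPM (236.6 to 300.8) in VD-Mac.

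*Trem1*, the receptor of neutrophils and monocytes, lies on chromosome 17 from 48232768 to 48246924, beside *Trem3* (48247777 to 48258841) and *Treml4* (48264295 to 48275360), and with *Trem2* these genes span 121380 bases. It had 946 CPM (890.4 to 1004) in graft neutrophil-like cells, 473 CPM (403 to 552) in graft cluster 9, an unnamed cluster led by the granule genes *Ngp*, *Camp* and *Ltf*, and 28.2 CPM (24.9 to 31.7) in graft macrophage-like cells. In the graft *Trem1* was thus highest where *Trem2* was close to absent. In the cultures it had 43.2 CPM (26.0 to 67.5) in the unnamed cluster 11 of Co-Mac and 57.3 CPM (40.1 to 79.3) in that of VD-Mac, and 29.8 CPM (24.7 to 35.6) in the mature neutrophil-like cells of Co-Mac and 45.8 CPM (39.5 to 52.7) in those of VD-Mac, a log2 ratio of 0.62 (0.28 to 0.96). In macrophage-like cells the *Trem1* ratio was 0.31 (0.18 to 0.44), with 0.90 (0.67 to 1.13) in cluster 3 and 0.04 (-0.12 to 0.20) in cluster 5, and over all kept cells it was 0.05 (-0.06 to 0.15), where a difference was not detectable at this depth.

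*Trem3*, a DAP12-coupled receptor of mice, had 255 CPM (205 to 315) in graft cluster 9, 164 CPM (141 to 189) in graft neutrophil-like cells and 4.22 CPM (3.03 to 5.72) in graft macrophage-like cells. In the cultures *Trem3* was highest in the unnamed cluster 11, led by granule genes as well, with 105 CPM (76.6 to 139.6) in Co-Mac and 73.2 CPM (53.6 to 97.6) in VD-Mac, where the interval overlapped that of the mature neutrophil-like cells. Its level was 46.4 CPM (42.8 to 50.3) in the neutrophil precursor-like cells of Co-Mac and 39.6 CPM (35.3 to 44.2) in those of VD-Mac, and 34.2 and 56.3 CPM in mature neutrophil-like cells. *Treml4*, a receptor of the same family, was sparse, with 93.4 CPM (76.5 to 113) in graft neutrophil-like cells and 2.26 CPM (1.42 to 3.43) in graft macrophage-like cells. It had under 10 CPM in every culture cluster. In the graft the receptors thus split into *Trem2* and the other 3, whose highest levels were in neutrophil-like cells or in cluster 9.

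*Tyrobp*, encoding DAP12, lies on chromosome 7 from 30413760 to 30417585, and *Hcst*, encoding DAP10, follows on the opposite strand from 30417712 to 30419854, with 126 bases between their 3′ ends. *Tyrobp* had 1048 CPM (1043 to 1054) in all kept cells of Co-Mac and 918 CPM (912 to 923) in those of VD-Mac, a log2 ratio of -0.19 (-0.20 to -0.18). In macrophage-like cells it had 1194 CPM (1186 to 1203) and 999 CPM (989 to 1009), a log2 ratio of -0.26 (-0.28 to -0.24). With the cells kept here *Tyrobp* was thus slightly lower and *Trem2* higher with VD3 in both sets. Under 5% mitochondrial UMIs the median ratio of *Tyrobp*, *Hcst*, *Syk* and *Plcg2* was 0.20 over all cells and 0.34 in macrophage-like cells. This median does not show the sign of the *Tyrobp* ratio alone in those cells. In mature neutrophil-like cells *Tyrobp* had 3439 CPM (3382 to 3496) and 4205 CPM (4143 to 4267), and in neutrophil precursor-like cells 1108 CPM (1090.3 to 1126) and 1479.5 CPM (1453 to 1507). *Trem2* and *Tyrobp* were both higher with VD3 in the precursor-like cells, and also in the unnamed clusters 2 (671 and 972 CPM of *Tyrobp*) and 8 (488 and 598 CPM). In cluster 2 the macrophage markers also went from 388 CPM to 1389 CPM and the median depth from 2840 UMIs in 560 cells to 1841 in 1459, and the part of these in its *Tyrobp* and *Trem2* ratios was not tested. Over the culture clusters the interval of the *Tyrobp* ratio lay above 0 in 5 and below 0 in 7.

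Graft levels of *Tyrobp* were 3034 CPM (2934 to 3137) in neutrophil-like cells, 1631 CPM (1586 to 1677) in cluster 2, 1470.3 CPM (1441 to 1499.8) in macrophage-like cluster 1 and 813 CPM (782 to 845) in macrophage-like cluster 3. Fibroblast-like cells had 20.9 CPM (16.5 to 26.2). In the graft *Tyrobp* was therefore found across the myeloid clusters, with its highest level in neutrophil-like cells, which had little *Trem2*. The cultures also had most *Tyrobp* in mature neutrophil-like cells, but there *Trem2* was at 249 CPM in Co-Mac and 189.7 CPM in VD-Mac.

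*Hcst* had 28.0 CPM (26.7 to 29.3) in the macrophage-like cells of Co-Mac and 52.1 CPM (49.9 to 54.5) in those of VD-Mac, a log2 ratio of 0.90 (0.80 to 0.99), the nearest to that of *Trem2* among the adaptors and enzymes. The interval of its ratio lay above 0 in 7 culture clusters and below 0 in 0. In mature DC-like cells *Hcst* had 7.31 and 8.33 CPM, a log2 ratio of 0.19 (-0.03 to 0.41), with 4.46 CPM (3.49 to 5.60) and 7.12 CPM (6.02 to 8.37) in cluster 1 and 9.17 and 9.20 CPM in cluster 0. The *Hcst* difference of mature DC-like cells was thus detectable in 1 of their clusters. Its graft order was unlike that of *Trem2*: T cell-like cells had 449 CPM (419 to 479.8), neutrophil-like cells 154 CPM (132 to 178) and macrophage-like cells 70.3 CPM (65.1 to 75.7).

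*Syk*, the kinase that binds phosphorylated DAP12, lies on chromosome 13 from 52583173 to 52648792. Its level in macrophage-like cells was 104 CPM (102 to 107) in Co-Mac and 67.8 CPM (65.2 to 70.5) in VD-Mac, a log2 ratio of -0.62 (-0.69 to -0.55). In mature DC-like cells it was 106 CPM (103 to 109.6) and 153 CPM (149 to 156), a log2 ratio of 0.52 (0.47 to 0.58). The *Syk* ratios of these types had opposite signs, and over all kept cells the levels were close, at 102 and 108 CPM. In the graft *Syk* had 672 CPM (625 to 721) in neutrophil-like cells and 165 CPM (157 to 174) in macrophage-like cells.

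*Plcg2*, the phospholipase downstream of SYK, lies on chromosome 8 from 117498291 to 117635142. It had 51.3 CPM (49.5 to 53.1) in the macrophage-like cells of Co-Mac and 47.8 CPM (45.7 to 50.1) in those of VD-Mac, a log2 ratio of -0.10 (-0.18 to -0.02). In the graft it had 34.6 CPM (31.0 to 38.5) in macrophage-like cells and 13.1 CPM (7.33 to 21.6) in neutrophil-like cells. *Plcg2* was the only gene among the adaptors and enzymes with a lower level in graft neutrophil-like than in graft macrophage-like cells. The unnamed graft clusters 2 and 5 had more of it, at 58.2 CPM (50.0 to 67.3) and 52.9 CPM (43.6 to 63.6). In the cultures the order was the other way, with 63.0 CPM in the mature neutrophil-like cells of Co-Mac and 77.4 CPM in those of VD-Mac.

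**Figure D1:**
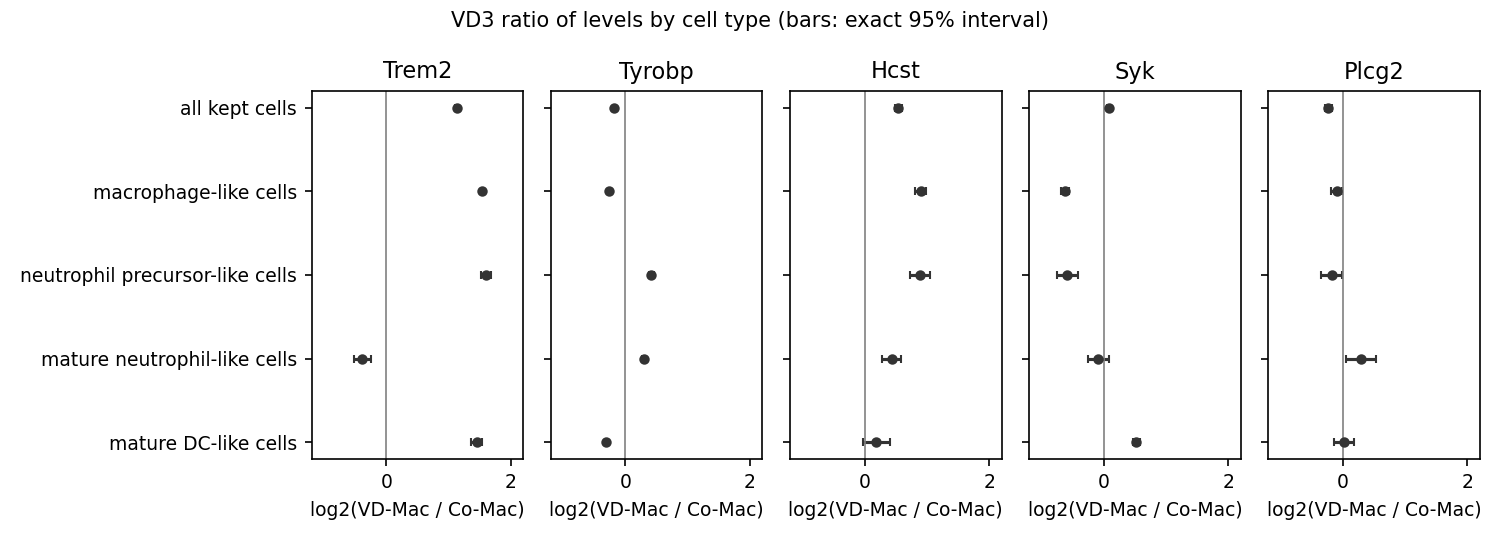
Log2 ratio of VD-Mac to Co-Mac levels for *Trem2*, both adaptors, *Syk* and *Plcg2* in all kept cells and by cell type, with exact 95% intervals of counting error. *Trem2* was 1.54 in macrophage-like and -0.39 in mature neutrophil-like cells, and *Syk* -0.62 in macrophage-like and 0.52 in mature DC-like cells.

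For calls, a gene had to differ 2-fold and reach 10 CPM in the set with more of it. Between the cultures 1 of 6 members with enough CPM was called over all kept cells, *Trem2*, beside 6.79% of the 7732 genes with enough. In macrophage-like cells 1 of 6 was called, again *Trem2*, beside 8.62% of 7841 genes. With only cells under 5% mitochondrial UMIs, 0 of 7 members were called over all cells, beside 7.21% of 7658 genes. The median log2 ratio of *Tyrobp*, *Hcst*, *Syk* and *Plcg2* was -0.053 over all kept cells and -0.18 in macrophage-like cells, and that of all genes with enough CPM was -0.10 and -0.10. These 4 went different ways, and their median rose above 0 under some alternatives: under 5% mitochondrial UMIs it was 0.20 over all cells and 0.34 in macrophage-like cells. Over all cells it was 0.035 with the mean of per-cell CPM, and in macrophage-like cells 0.032 with each culture clustered alone.

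Graft macrophage-like cells were set against the other graft cells in the same way. *Trem2* had 509 CPM (495 to 524) and 26.9 CPM (24.2 to 29.9), a log2 ratio of 4.24 (4.08 to 4.40). Of the 348 *Trem2* UMIs of the other cells, 251 were from the unnamed cluster 2. Macrophage markers summed to 6730 CPM in that cluster, beside 9672 CPM in macrophage-like cluster 1, and its part in the ratios here was not tested. The ratios of *Tyrobp* (0.50), *Plcg2* (0.41), *Syk* (-0.01) and *Hcst* (-0.52) were within 2-fold, with a median of 0.20, and *Trem1* (-2.03), *Trem3* (-2.66) and *Treml4* (-2.41) were lower. In all, 4 of 8 members were called, 1 higher and 3 lower, beside 25.9% of 8526 genes. The *Trem2* ratio was 0.80 at a clustering resolution of 0.8, too small for a call, where the cluster led by *Mmp12*, *Spp1* and *Gpnmb* got no name, and 3.18 under the naming rule used first, which gave cluster 3 no name. The median of the 4 was -0.75 with the mean of per-cell CPM and -0.045 at that resolution.

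Across 37 clusters of at least 20 cells in the 3 libraries, Pearson's r of log2(CPM + 1) with *Trem2* was 0.49 for *Plcg2*, 0.33 for *Tyrobp*, 0.19 for *Syk* and -0.03 for *Hcst*, and the median over 7202 genes was 0.09. Clusters of a library share its free RNA, and each culture cluster enters once per library. Their depth differs, with median UMIs per cell from 1841 to 29104 in VD-Mac and from 689 to 25493 in hSTSG. All clusters weigh the same, so these values are descriptions. Within single libraries the r of *Tyrobp* was 0.17 over 13 clusters of Co-Mac, -0.06 over 13 of VD-Mac and 0.39 over 11 of hSTSG. In the same order the r of *Plcg2* was 0.32, -0.001 and 0.66, that of *Syk* 0.36, -0.20 and 0.38, and that of *Hcst* -0.014, 0.13 and -0.057. For the receptor *Treml4*, sparse in the cultures, it was 0.77, -0.32 and -0.15. In Co-Mac *Treml4* had 0 UMIs in clusters 2, 8, 9, 10 and 11, where 3 counts of the total would be 1.66 to 7.95 CPM. Its highest level in the other clusters of Co-Mac was 3.22 CPM, so the 0.77 rests on levels near this limit. Across the 13 clusters of VD-Mac, none of *Tyrobp*, *Plcg2*, *Syk* and *Hcst* had an r with *Trem2* above 0.13. The genes most like *Trem2* were *Atp6v0d2* (0.80), *Cmklr1* (0.78), *Msr1* (0.78), *Clec4n* (0.77), *Ccl9* (0.77), *Gpnmb* (0.77), *Renbp* (0.77), *Hebp1* (0.76), *Pid1* (0.75) and *Ctsz* (0.75), none of them a member.

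*Trem1* was closer to the adaptors than *Trem2* was. Over all clusters its r was 0.90 with *Trem3*, 0.67 with *Hcst*, 0.55 with *Syk*, 0.54 with *Tyrobp*, 0.44 with *Plcg2* and 0.05 with *Trem2*, where the median over all genes was -0.05. Within Co-Mac, VD-Mac and hSTSG the r of *Trem1* was 0.78, 0.79 and 0.84 with *Tyrobp* and 0.72, 0.73 and 0.62 with *Hcst*. With *Plcg2* it was 0.91, 0.90 and 0.48, with *Syk* 0.57, -0.089 and 0.81, and with *Trem2* 0.49, 0.29 and 0.011. With *Treml4* it was 0.35, -0.23 and 0.80. The genes most like *Trem1* were *Cd300lf* (0.92), *C5ar1* (0.91), *Cd33* (0.90), *Trem3* (0.90), *Clec4e* (0.88), *Mapkapk2* (0.87), *Csf3r* (0.87), *Tpd52* (0.87), *Osgin1* (0.86) and *Siglece* (0.86).

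**Figure D2:**
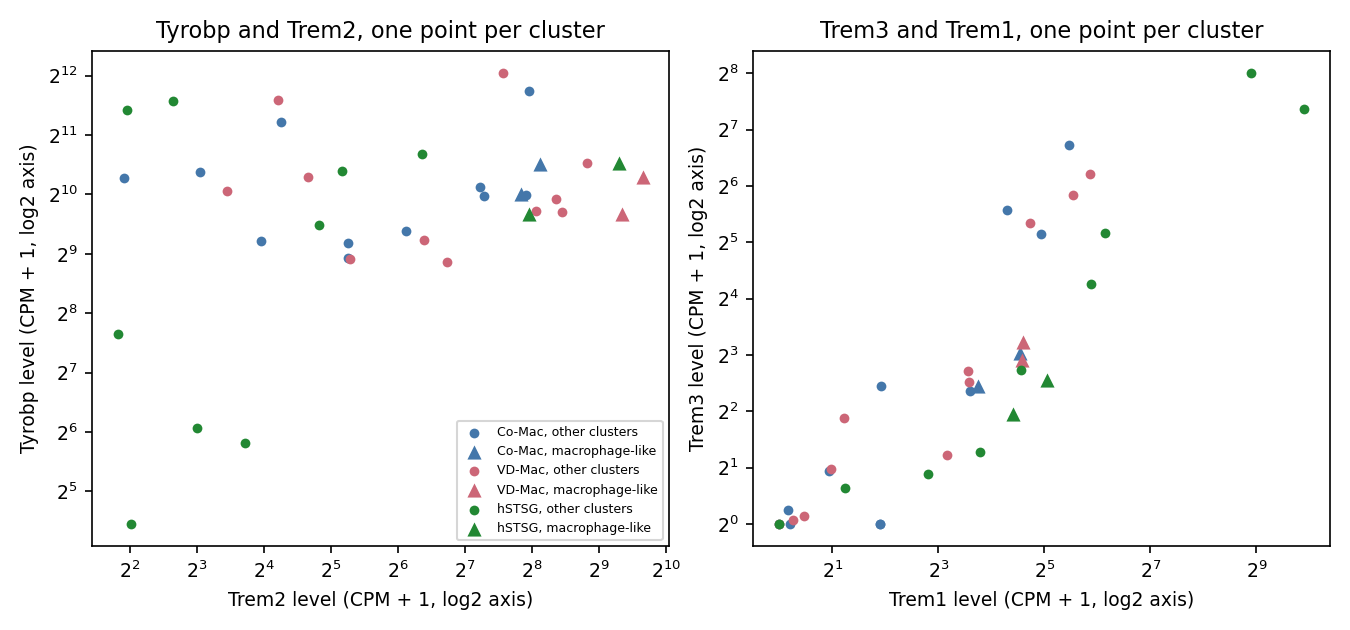
Levels of *Tyrobp* against *Trem2* and of *Trem3* against *Trem1*, as CPM + 1 on log2 axes, 1 point per cluster of at least 20 cells, colored by library. Pearson's r was 0.33 for *Tyrobp* with *Trem2* and 0.90 for *Trem3* with *Trem1*.

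Macrophage-like cells thinned to 2000 UMIs were also divided by whether they had a *Trem2* UMI. *Tyrobp* had 1339 CPM in the 800 cells of Co-Mac with a *Trem2* UMI and 1172 CPM in the 1296 without, a log2 ratio of 0.19 (0.11 to 0.27). The *Tyrobp* ratio was 0.34 (0.23 to 0.45) in VD-Mac and 0.41 (0.24 to 0.58) in hSTSG. For *Hcst*, *Syk* and *Plcg2* the interval of the ratio held 0 in all 3 libraries, so no difference was detectable at this depth. *Trem3* in VD-Mac went the other way, with a log2 ratio of -1.34 (-2.42 to -0.27) on 16 and 17 UMIs. In hSTSG the cells with a *Trem2* UMI were deeper before thinning than those without, at a median of 15514 and 11642 UMIs. In VD-Mac they were less deep, at 17443 and 19479 UMIs, and in Co-Mac the medians were close, at 23344.5 and 23573.5 UMIs. The part of depth and of cell subtypes in the *Tyrobp* ratios was not tested.

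The wider pathway was read from 72 further genes in 8 lists, of which 1 was not measured, as VD3 ratios over all kept cells. The cultures differed in make-up, with 2099 of 7257 cells macrophage-like in Co-Mac and 1735 of 8825 in VD-Mac. The part of make-up in the ratios of the lists was not tested. Over all 7732 genes with enough CPM, 167 were called higher and 358 lower, with a median log2 ratio of -0.10. Of the receptors that pair with DAP12 or DAP10, 8 of 16 had enough CPM, 0 were called higher and 6 lower, and the median log2 ratio was -1.25. *Cd200r4* had 94.1 CPM in Co-Mac and 7.00 CPM in VD-Mac (log2 ratio -3.75), *Clec5a* 80.8 and 38.2 CPM (-1.08) and *Cd300c2* 54.3 and 78.9 CPM (0.54). In macrophage-like cells 4 of the 8 with enough CPM were lower, with a median of -0.996, beside 409 lower of 7841 genes and a median of -0.10. The *Trem2* relative *Treml2* had 28.2 and 71.5 CPM (1.34).

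The background for the other lists was the same, 167 higher and 358 lower of 7732 genes and their median of -0.10. Among kinases of the SRC, SYK and TEC families, 7 of 8 had enough CPM, 0 were called higher and 0 lower, and the median log2 ratio was -0.49, with *Fgr* at -0.62 and *Lyn* at 0.26. The adaptor *Fcer1g*, which carries the same kind of motif as *Tyrobp*, had 1239 and 830.4 CPM (log2 ratio -0.58). Of the adaptors and enzymes downstream of *Syk*, 16 of 19 had enough CPM, 0 were called higher and 3 lower, and the median log2 ratio was -0.16, with *Prkcd* at -1.23, *Malt1* at -1.18, *Pik3r1* at 0.64 and *Grb2* at 0.32. Of the inhibitors of *Tyrobp* and *Syk* signalling, 12 of 12 had enough CPM, 0 were called higher and 3 lower, and the median log2 ratio was -0.36, with *Dok2* at -1.88, *Pirb* at -1.27, *Ptpn6* at 0.35 and *Ubash3b* at 0.84. Of the enzymes that shed TREM2 or process its remainder, 7 of 7 had enough CPM, 0 were called higher and 0 lower, and the median log2 ratio was -0.14, with *Adam17* at -0.64, *Adam10* at -0.44, *Aph1a* at -0.07 and *Psenen* at 0.30. Of the ligands, 4 of 5 had enough CPM, 0 were called higher and 1 lower, and the median log2 ratio was -0.26, with *Pglyrp1* at 0.72 and *Hmgb1* at -0.31. In macrophage-like cells 3 ligands had enough CPM, 0 were called lower, and the median was -0.017. The medians there were -0.37 for the kinases, -0.084 for the downstream adaptors and enzymes, -0.38 for the inhibitors and -0.013 for the shedding enzymes.

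Promoters of *Trem2* and *Hcst*, the members with the largest VD3 ratios among receptors and adaptors in macrophage-like cells, are printed from RefSeq for GRCm38.p6, 300 bases each on the strand of the gene; promoters were available for 6 of 8 members. Capitals mark half-sites of the vitamin D receptor, AGGTCA or GGTTCA on either strand. *Trem2* held 1 match to AGGTCA, on the other strand, and *Treml4* held 1, while *Hcst* held 0 of either. Of 32851 promoters, 16.3% held AGGTCA and 10.4% GGTTCA. A match is a description.
Trem2, chr17:48346151-48346450, plus strand: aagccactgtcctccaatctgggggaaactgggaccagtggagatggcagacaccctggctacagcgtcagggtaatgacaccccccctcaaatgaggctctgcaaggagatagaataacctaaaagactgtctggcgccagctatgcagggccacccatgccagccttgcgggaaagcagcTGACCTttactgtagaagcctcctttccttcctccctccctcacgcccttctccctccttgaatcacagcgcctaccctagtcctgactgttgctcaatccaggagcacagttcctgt
Hcst, chr7:30419805-30420104, minus strand: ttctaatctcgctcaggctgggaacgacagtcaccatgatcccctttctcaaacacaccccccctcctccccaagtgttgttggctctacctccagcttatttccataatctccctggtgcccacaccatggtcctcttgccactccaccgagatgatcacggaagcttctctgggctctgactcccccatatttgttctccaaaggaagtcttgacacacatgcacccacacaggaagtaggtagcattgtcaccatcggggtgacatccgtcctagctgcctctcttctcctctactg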

How the data were processed

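The deposited files hold UMI counts that the authors made with Cell Ranger (3.1.0 per the file headers), and the authors' notes name Seurat 3.1.1 for later steps. The build is given differently in places (mm9 in the processing notes, the human GRCh38 in the methods), while the features are mouse Ensembl genes, and the build behind the counts, those of the human graft included, is not known here; positions here are those of GRCm38. The counts of cells with at least 300 genes, under 100000 gene UMIs and under 10% mitochondrial UMIs were kept: 7257 of 7866 barcodes in Co-Mac, 8825 of 9794 in VD-Mac and 2144 of 2644 in hSTSG, with medians of 15804, 12089 and 6638 UMIs per cell. Antibody counts were left out of all levels. The members and gene lists were chosen with earlier results of these data known.

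Clusters were made in Seurat 5.3.0 (R 4.3.3, Matrix 1.6.5) from log-normalized counts (scale 10000), 2000 variable genes without the members and lists, 15 principal components, 15 neighbors and Louvain resolution 0.5, with anchor integration of the cultures and the graft alone. For the cultures 3 ways were tried, and member levels were in view when integration was chosen. A cluster was named when its marker score reached 0.5 with at least 3 markers detected and 75% of them raised, and left unnamed where 3 or more markers of another class, and more than its own, were among its 10 leading genes, or where its depth was low and no marker of its own led it. This naming rule was revised more than once after clusters had been seen; culture clusters 3 and 5 were macrophage-like under each version, and graft cluster 3 had no name under the first. Scrublet in scanpy 1.11.5 called 4, 2 and 8 cells, too few to have worked, so doublets were kept, and an alternative left out the 457, 691 and 45 cells with the highest scores.

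CPM was computed from summed counts, with exact Poisson intervals for levels, conditional binomial intervals for ratios and Clopper-Pearson intervals for shares (3 counts of the total as the limit where none had a UMI), all 95% and of counting error only (Python 3.11.15, numpy 2.4.6, scipy 1.17.1, pandas 2.3.3, anndata 0.12.19, matplotlib 3.10.9). Calls needed 2-fold and 10 CPM in the higher set; with 1 library per condition no test was made. From each pathway list the 2 genes with the highest and the 2 with the lowest VD3 ratios were named, among those that reached 50 CPM in either culture, and likewise the 10 genes with the highest r with *Trem2* and with *Trem1*; 1 gene under this rule is not reported here. The computation was tested on simulated data.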

Additional observations from a re-analysis of the deposited data

Results flagged for a closer look

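Ratios of VD-Mac to Co-Mac whose intervals lay on opposite sides of 0 in macrophage-like cells and another cell type were picked out where the gene reached 10 CPM in either culture in both types, and these differences between groups were not tested. For *Trem2* the log2 ratio was -0.39 in mature neutrophil-like cells and 1.54 in macrophage-like cells. For *Tyrobp* it was 0.29 in mature neutrophil-like and 0.42 in neutrophil precursor-like cells, against -0.26 in macrophage-like cells. *Syk* had 0.52 in mature DC-like and 0.73 in cDC1-like cells, against -0.62. *Plcg2* had 0.30 in mature neutrophil-like and 0.63 in cDC1-like cells, against -0.10. With less than 10 CPM in macrophage-like cells, and so outside this rule, *Treml4* had -1.04 there and 1.21 in mature DC-like cells, and *Trem3* 0.24 and -0.23 in neutrophil precursor-like cells. Outside the genes, the graft library held 1195935 antibody UMIs, which no comparison here used, where Co-Mac and VD-Mac held 0.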

How the results depend on the processing

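The results here are the VD3 log2 ratio of *Trem2*, the median ratio of *Tyrobp*, *Hcst*, *Syk* and *Plcg2* (the 4), the same for graft macrophage-like cells against the others, r of *Tyrobp* with *Trem2* across clusters, and the share of macrophage-like cells of VD-Mac with a *Trem2* UMI. With a minimum of 300 UMIs per barcode, graft *Trem2* was 3.89 and r was 0.46. Under 5% mitochondrial UMIs, *Trem2* in all cells was 0.73, the median of the 4 in all cells was 0.20, the members called were 0, *Trem2* in macrophage-like cells was 1.18, the median of the 4 in macrophage-like cells was 0.34, graft *Trem2* was 4.08 and r was 0.28. With the mean over cells of per-cell CPM, the median of the 4 in all cells was 0.035, *Trem2* in macrophage-like cells was 1.62, the median of the 4 in macrophage-like cells was -0.13, graft *Trem2* was 4.05 and the graft median of the 4 was -0.75. Scaled without mitochondrial and ribosomal protein genes, *Trem2* in all cells was 1.22, the median of the 4 in all cells was 0.042, *Trem2* in macrophage-like cells was 1.66, the median of the 4 in macrophage-like cells was -0.060 and r was 0.34. Without the cells of the highest Scrublet scores, *Trem2* in all cells was 1.16, *Trem2* in macrophage-like cells was 1.58 and r was 0.34. At resolution 0.3, *Trem2* in macrophage-like cells was 1.497 and r was 0.32. At resolution 0.8, *Trem2* in macrophage-like cells was 1.59, graft *Trem2* was 0.80, the graft median of the 4 was -0.045 and r was 0.35. With 30 principal components, graft *Trem2* was 3.89 and r was 0.30. With members and lists kept among the variable genes, *Trem2* in macrophage-like cells was 1.49, graft *Trem2* was 3.77 and r was 0.38. With each culture clustered alone, *Trem2* in macrophage-like cells was 1.61, the median of the 4 in macrophage-like cells was 0.032 and r was 0.35. Under the first naming rule, graft *Trem2* was 3.18. With cell types of the VD3 culture weighted to the control make-up, *Trem2* in all cells was 1.45. With each cell thinned to 1000 UMIs, the share was 49.4%. Without thinning, the share was 96.0%. Pearson's r was 0.31 with 10 CPM added before log2, 0.17 with clusters of Co-Mac alone, -0.060 (a reversed sign) with clusters of VD-Mac alone and 0.39 with clusters of hSTSG alone. The clusterings of each culture alone and of both without integration, and the first naming rule, were chosen after seeing the data; clustering without integration gave no value in macrophage-like cells. Under 5% mitochondrial UMIs, beside the 0 of 7 members called, 7.21% of 7658 genes were called over all cells. The *Trem2* ratios kept their sign under every alternative. Scaling without mitochondrial and ribosomal protein genes shifted the VD3 log2 ratio of every gene by the same amount by construction, so its moves of *Trem2* and of the median of the 4 were no sign of a change in them. The cause of the other moves was not tested. No paired analysis was possible because there was 1 library per condition.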
